A study of Homo sapiens with 4 samples.

Results

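The 118 regions described here are the broadest stretches of open chromatin shared by 4 libraries of AMO1, a long-established human multiple myeloma line of plasma cell origin. Overlapping peaks on chromosomes 1 to 22 were merged into 71853 regions, of which 34809 had a peak in every library. A region was kept as broad when its longest single peak measured at least 3000 bp in both empty vector libraries. These 118 regions are 0.339% of the regions open in every library and 0.164% of all merged regions. Peak length in the empty vector libraries chose them, so those lengths are a description and not a finding. The 1187 regions whose longest peak measured 2000 bp or more in both empty vector libraries, but under 3000 bp in both, are used as the nearest comparison.

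All cells were AMO1 transfected with the PCDH plasmid, either empty (genotype given as WT) or carrying PHF19. Each condition has 1 library: empty vector, PHF19 overexpression, and one of each with IFN at the start of the title, called here IFN empty vector and IFN PHF19 overexpression. The labels do not say what that prefix stands for, and they give no time, dose, clone or level of the expressed protein. Values below are given in the order empty vector, PHF19 overexpression, IFN empty vector, IFN PHF19 overexpression unless the libraries are named. The libraries held 27.4, 18.2, 65.9 and 16.4 M (mega) fragments. Thus both PHF19 libraries are shallower than either empty vector library, and depth cannot be told apart from the plasmid. The header of the IFN empty vector library also names another project folder than the other libraries do. With 1 library per group no difference has a replicate check and nothing was tested. The 95% intervals printed with the ratio of a single region cover counting error only. Those printed with a median come from the ranks of the regions, which are not replicates, and say nothing about the spread between libraries.

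ATAC-seq uses the Tn5 transposase to cut and tag DNA that is not wrapped in nucleosomes or packed away, so a peak marks DNA that proteins can reach. Most open sites are about as wide as a nucleosome-free gap, whereas some promoters and enhancers stay open over several neighbouring gaps. Broad open domains are often found at CpG island promoters, which are rich in the CG dinucleotide and mostly unmethylated, and at strong enhancers of genes that define a cell type. PHF19 is a Polycomb-like protein that brings Polycomb repressive complex 2, which places the repressive mark H3K27me3, to such CpG-rich DNA.

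To show what lies under broad regions, 6 promoters are printed, chosen after the values were seen. SDC1 is the tallest of the broad regions, CD74 is the one with the fewest CpGs relative to its base composition, CXCR4 and IQGAP2 are lower in both PHF19 libraries, SQSTM1 is higher in both, and EEF2 is shortest in the IFN PHF19 library. Each line holds the 250 bases before the gene's start, 5′ to 3′ on the gene's strand, from RefSeq on GRCh38.p14. Capitals mark matches on either strand of CCAAT (the CCAAT box), GGGCGG (the GC box), TATAAA (the TATA box), TGANTCA (the AP-1 site), TGACGTCA (the cyclic AMP response element), GAAANNGAA (the core of the interferon response element) or ATTTGCAT (the octamer). The SDC1 window is chr2:20225476-20225725 on the minus strand, CD74 is chr5:150412911-150413160 (minus), CXCR4 is chr2:136117870-136118119 (minus), IQGAP2 is chr5:76403035-76403284 (plus), SQSTM1 is chr5:179820655-179820904 (plus) and EEF2 is chr19:3985464-3985713 (minus).
SDC1: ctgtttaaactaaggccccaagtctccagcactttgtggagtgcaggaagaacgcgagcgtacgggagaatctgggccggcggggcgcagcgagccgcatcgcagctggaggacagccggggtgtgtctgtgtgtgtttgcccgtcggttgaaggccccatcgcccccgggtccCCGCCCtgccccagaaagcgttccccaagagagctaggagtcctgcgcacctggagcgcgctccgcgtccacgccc
CD74: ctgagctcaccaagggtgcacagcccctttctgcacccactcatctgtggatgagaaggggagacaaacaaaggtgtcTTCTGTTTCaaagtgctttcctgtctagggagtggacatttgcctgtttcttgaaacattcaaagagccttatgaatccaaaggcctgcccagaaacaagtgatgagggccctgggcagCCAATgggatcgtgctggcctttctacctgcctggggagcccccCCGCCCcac
CXCR4: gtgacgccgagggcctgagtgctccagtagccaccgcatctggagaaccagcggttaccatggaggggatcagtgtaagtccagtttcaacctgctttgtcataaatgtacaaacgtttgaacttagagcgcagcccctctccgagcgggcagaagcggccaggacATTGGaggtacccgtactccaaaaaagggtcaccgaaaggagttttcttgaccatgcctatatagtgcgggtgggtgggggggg
IQGAP2: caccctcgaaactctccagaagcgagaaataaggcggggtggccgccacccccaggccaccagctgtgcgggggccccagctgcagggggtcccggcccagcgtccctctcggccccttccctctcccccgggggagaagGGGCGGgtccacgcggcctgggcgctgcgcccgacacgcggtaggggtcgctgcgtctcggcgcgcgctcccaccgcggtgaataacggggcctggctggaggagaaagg
SQSTM1: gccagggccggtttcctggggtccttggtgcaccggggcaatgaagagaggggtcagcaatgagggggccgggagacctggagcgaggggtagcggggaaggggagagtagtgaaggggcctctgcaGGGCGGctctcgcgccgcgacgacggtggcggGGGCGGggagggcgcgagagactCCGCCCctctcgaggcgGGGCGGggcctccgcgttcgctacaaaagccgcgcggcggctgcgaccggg
EEF2: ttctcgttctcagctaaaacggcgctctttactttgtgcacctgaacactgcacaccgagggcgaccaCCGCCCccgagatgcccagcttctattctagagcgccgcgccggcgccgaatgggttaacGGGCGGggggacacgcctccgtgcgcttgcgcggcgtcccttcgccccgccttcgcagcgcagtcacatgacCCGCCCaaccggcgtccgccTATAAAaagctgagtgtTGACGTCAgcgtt

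The printed promoters range from CpG-poor to CpG-dense. CD74 has 2 CpGs in its 250 bases, while CXCR4 has 12, SDC1 23, IQGAP2 26, SQSTM1 29 and EEF2 31. The SQSTM1 sequence holds 4 GC boxes. EEF2 carries 3 GC boxes, a TATA box and a cyclic AMP response element, and CD74 has a CCAAT box, a GC box and the interferon response core on its opposite strand. A match is only a run of letters and is no evidence that a factor binds there.

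Across the 75 broad regions with a stranded coding gene start in the RefSeq promoter table, the promoter window of 300 bases (250 before and 50 after the start) had a median GC content of 69.3%. Its median CpG observed/expected ratio, the number of CpGs relative to that expected from the C and G content, was 0.87. The ratio reached 0.6 or more in 68 of 75 windows (90.7%), against 90.8% in the 2 to 3 kb class, 86.7% over all regions in 4 libraries and 62.6% over all 21156 coding promoter windows. Broad promoters were thus CpG-rich to about the same share as the next narrower class. Those under 0.6 with a named gene were CD74 (0.14), IRF5 (0.32), ZBTB7B (0.34), LIME1 (0.44), CELF2 (0.50) and VIM (0.58).

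The GC box, bound by SP and KLF factors, occurred in 64 of the 75 broad promoters (85.3%), against 80.0% in the 2 to 3 kb class, 74.2% of open promoters and 56.6% of all coding windows. The CCAAT box, bound by NF-Y, occurred in 16 (21.3%), fewer than the 33.3% of the 2 to 3 kb class, 36.8% of open promoters and 34.4% of all windows. CANNTG, the E-box read by basic helix-loop-helix factors, was present in 49.3% of broad promoters, 59.0% of open ones and 64.9% of all. The core of the ETS site, GGAA, was in nearly every window, at 97.3%, 94.9% and 95.1%; it can fall inside GAAANNGAA, and no other motif holds another. The TATA box was in 5 windows (KLHL21, H2AC20, IRF5, TLCD1 and EEF2), which is 6.67%, beside 4.98% of open promoters and 9.51% of all. The interferon response core was in 9 windows (12%, against 6.06% and 7.07%), among them CD74, FOXO1, KLF12 and MLLT6. The octamer was in 3 (4.0%, against 1.54% and 1.62%), 2 of which belong to histone genes, H2AC20 and H2BC10. The AP-1 site and the cyclic AMP response element were in 1 window each (1.33%), while 3.93% and 3.47% of open promoters, and 6.08% and 2.31% of all windows, held them. In the 2 to 3 kb class the E-box was in 56.4%, GGAA in 93.5%, the TATA box in 5.64% and the interferon response core in 7.05%. The octamer was in 1.69% there, the AP-1 site in 3.10% and the cyclic AMP response element in 2.96%. Shares that rest on 9 or fewer of the 75 broad windows are coarse.

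**Figure D1:**
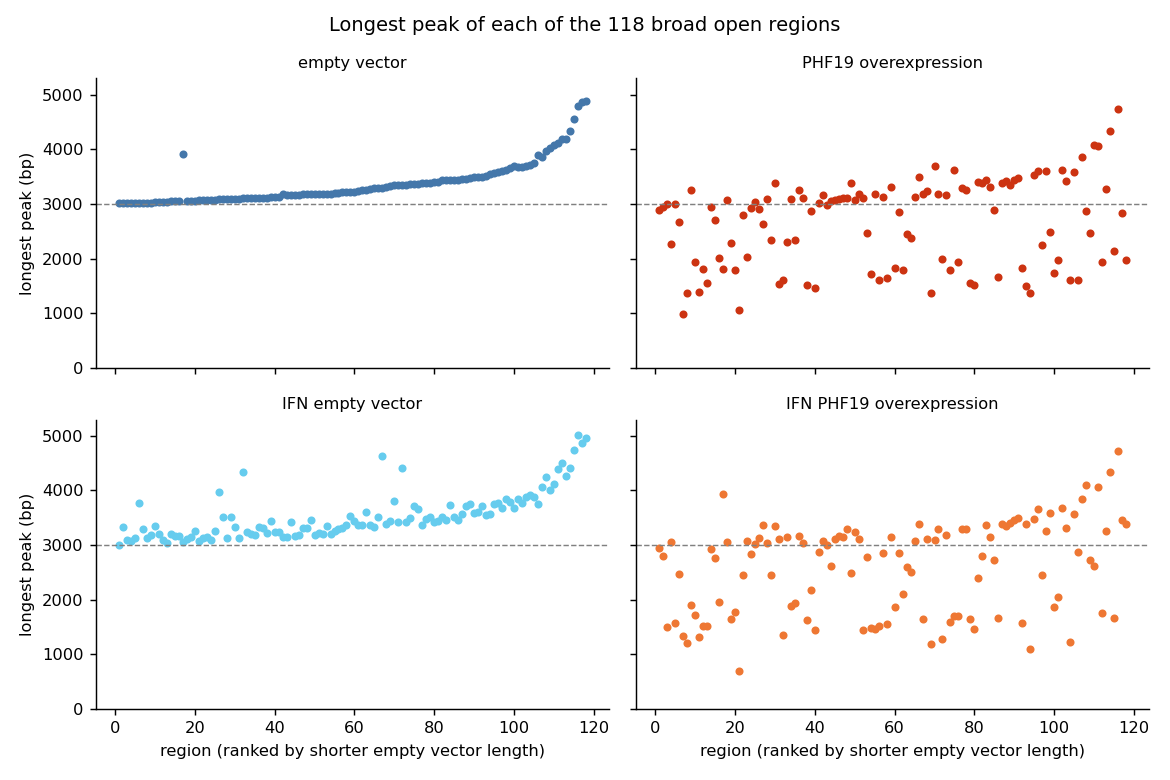
Length in bp of the longest peak of each of the 118 broad regions, 1 panel per library, with regions ranked along the horizontal axis by the shorter of their 2 empty vector lengths; the dashed line is 3000 bp. All points lie above the line in both empty vector panels because the regions were chosen so, and 55 and 52 points reach it in the PHF19 and IFN PHF19 panels.

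In each PHF19 library more of the broad regions were under the length minimum than reached it. The median longest peak was 3235, 2915.5, 3426 and 2846 bp, and 118, 55, 118 and 52 regions reached 3000 bp. More than 1 peak covered the region in 2, 42, 1 and 46 cases, and the longest peak was under 2000 bp in 0, 34, 0 and 39. Summed over the peaks of a region, the open length differed less, with medians of 3249, 3072.5, 3426 and 2988.5 bp. The median log2 ratio of peak length, PHF19 over empty vector, was -0.10 in the unprefixed pair and -0.34 in the IFN pair. It was -0.09 and -0.36 over all regions and -0.06 and -0.15 in the 2 to 3 kb class. The fall at broad regions was thus about as large as over all regions and larger than in the nearest class. However, the empty vector lengths in these ratios also chose both length sets, with no upper limit for the broad regions. The comparison with the nearest class is therefore fixed in part by the choice. In the 2 to 3 kb class, 110 and 141 of the 1187 regions were split in the PHF19 and IFN PHF19 libraries and 414 and 466 were under 2000 bp. Over all 34809 regions 522 and 635 were split, so splits were more frequent at broad regions than in either set. A longer stretch has more room to break, and broad regions were chosen to hold a long single peak in the empty vector libraries. This difference is therefore not independent of the choice. Selection acted on the empty vector libraries alone and the PHF19 libraries were the shallower ones, and the part of either in these lengths was not tested. When the same minimum was applied to both PHF19 libraries instead, 42 regions passed, with a median longest peak of 3349, 3302, 3475 and 3276 bp. Their median log2 length ratios were -0.018 in the unprefixed pair and -0.074 in the IFN pair. Of these 42, 40 were also broad in the empty vector libraries. The others were at NR3C1, the glucocorticoid receptor (2933, 3029, 3109 and 3085 bp), and SMARCA2, an ATPase of the SWI/SNF remodelling complex (2903, 3162, 3113 and 3097 bp).

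Just inside the length minimum were IQGAP2 with 3010 bp in the empty vector library and 3338 in the IFN empty vector library, SPEN with 3012 and 3087, WNT11 with 3012 and 3083, and DUSP6 with 3026 and 3008. Just outside were PDIA6 (2994 and 3051 bp), the noncoding ANXA2R-OT1 (2986 and 3027), ZMYND11 (3044 and 2985) and SHF (2983 and 3113). PDIA6, a chaperone of the endoplasmic reticulum, measured 994 and 985 bp in the PHF19 libraries.

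The longest of the 118 lay at the start of BRD2, a reader of acetylated histones, at chr6:32967692-32972658. Its longest peak measured 4889, 1980, 4967 and 3390 bp, and it was called as 3 peaks in the PHF19 library and 2 in the IFN PHF19 library. The region shared by LIMD2 and STRADA measured 4877, 2829, 4871 and 3458 bp. A region at the noncoding genes TRIM7-AS2 and LINC01962, near the end of chromosome 5, kept its length in every library, at 4803, 4738, 5009 and 4716 bp. JAG1, which encodes a ligand of Notch receptors, measured 4562, 2138, 4733 and 1661 bp. Hence regions of nearly equal length in the empty vector libraries were both among the most stable and the most shortened ones.

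The 40 regions that measured at least 3000 bp in all 4 libraries included SDC1, CXCR4, CFLAR, BHLHE40, SQSTM1, TFEB, FOXO3, IRF5, VIM and YWHAZ. Their median height, defined below, was 9.56 fragments per M in the empty vector library. At the other end, 27 regions were under 2000 bp in both PHF19 libraries, with a median height of 9.25. The most shortened in the IFN pair was EEF2, which encodes the translation elongation factor that moves the ribosome along; its longest peak measured 3064, 1061, 3081 and 693 bp. In the unprefixed pair it was the region 98392 bp from BASP1, with 3018, 985, 3289 and 1334 bp. NR4A2, an orphan nuclear receptor induced by many stimuli, measured 3556, 1365, 3571 and 1090 bp. KCNA3, a voltage-gated potassium channel of lymphocytes, measured 3707, 1606, 3915 and 1215 bp. For broad regions all of these were also low, with 43 fragments at the tallest summit of EEF2 in the PHF19 library, 56 near BASP1, 68 at NR4A2 and 72 at KCNA3. Taller regions fell as well. The histone region H3C8/H2BC10 (188 fragments in the same library) fell from 3331 and 3433 bp to 1373 and 1187 bp. CYS1 (108 fragments) fell from 3408 and 3417 bp to 1509 and 1464 bp. MINDY1/PRUNE1 (667 fragments) fell from 3035 and 3211 bp to 1391 and 1311 bp.

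Broad regions were open at several points rather than at one. Each held a median of 4 summits, the local maxima that the peak caller reports, in every library. The median was 2 in the 2 to 3 kb class and 1 over all regions. A longer peak has more room for summits and for gaps between them, and length chose the broad regions. The median longest peak over all regions was 891 bp in the empty vector library, so summit number and spacing describe the choice and are no separate trait. Neighbouring summits were a median of 789, 751, 886 and 695 bp apart, compared with 553, 515, 621.5 and 517 bp over all regions. The lowest summit of a region reached a median of 0.46, 0.52, 0.49 and 0.51 of its tallest. The position of the tallest summit varied between libraries. The tallest summits of all 4 libraries lay within 100 bp of each other in 52 of the 116 broad regions with several summits in every library (44.8%). Over all regions with several summits in every library it was 1436 of 2734 (52.5%).

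**Figure D2:**
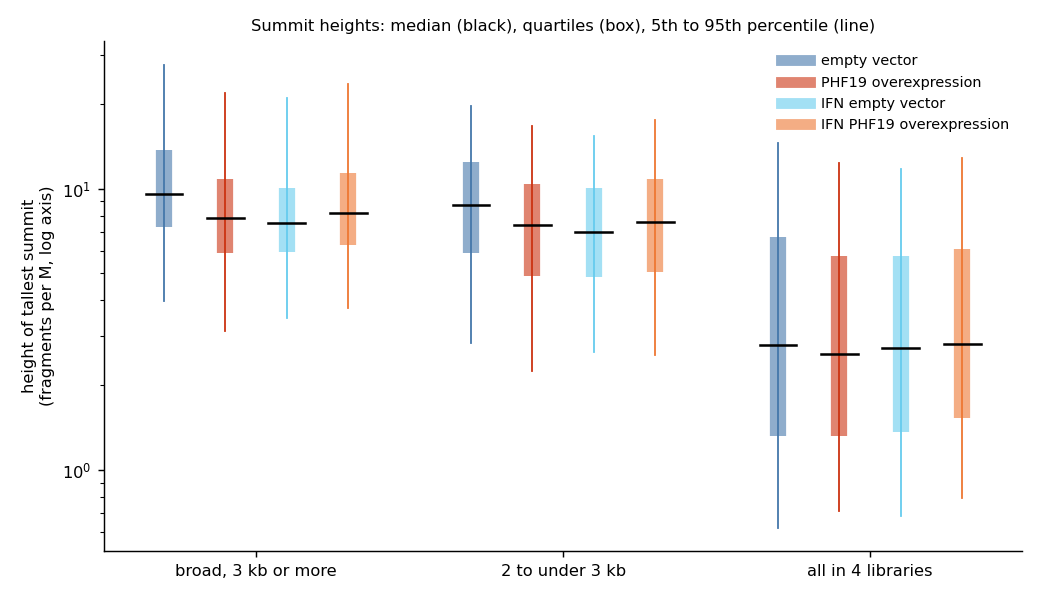
Height of the tallest summit in fragments per M fragments (log axis) for the 118 broad regions, the 1187 regions of 2 to under 3 kb and the 34809 regions in all 4 libraries, 1 box per library, where the line across is the median, the box the quartiles and the thin line the 5th to 95th percentile. Broad regions had medians of 9.56, 7.87, 7.57 and 8.21, against 2.78, 2.58, 2.72 and 2.81 over all regions.

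Region height is the fragment coverage at the tallest summit divided by the fragments of the library in M. Broad regions were tall as a group, and the plot of summit heights shows that they overlapped widely with the 2 to 3 kb class. Their median height was 9.56, 7.87, 7.57 and 8.21 fragments per M, whereas the 2 to 3 kb class had 8.77, 7.41, 7.01 and 7.63. By height in the empty vector library, 117 of the 118 stood above the median of all regions and 40 were in the highest 10%. Among themselves, length and height were nearly unrelated, with Spearman correlations over the 118 regions of 0.00, 0.17, 0.04 and 0.21. The authors' fold enrichment over the local background had medians of 5.27, 5.002, 4.91 and 5.16, against 8.13, 7.62, 8.58 and 7.96 over all regions. The 2 to 3 kb class lay between, at 7.07, 6.80, 6.70 and 6.79, so lower enrichment is not particular to regions of 3 kb or more. Fold enrichment is the deposited value of each peak and is not compared between libraries.

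SDC1, the heparan sulphate proteoglycan CD138 that marks plasma cells, was the tallest by far. Its region at chr2:20221796-20226066 reached 246, 295, 158 and 314 fragments per M, so the IFN empty vector library was lowest and both PHF19 libraries were highest. The next, at chr1:150560122-150564186, lies at the far end of ADAMTSL4 and 12097 bp from the nearer end of MCL1, a survival protein of the BCL2 family. This region reached 84.6, 77.3, 68.0 and 87.7. CD74, the invariant chain of MHC class II, reached 35.1, 20.03, 27.9 and 21.98, and the histone genes H2BC21, H2AC20 and H2AC21 share a region at 32.3, 35.2, 26.6 and 36.0. Other tall regions were MINDY1/PRUNE1 (30.4, 36.6, 24.4 and 38.7), an intergenic region 15947 bp from HJV (27.2, 22.4, 20.5 and 27.5), one 7413 bp from MPZL1 (22.1, 24.3, 17.2 and 23.5) and ZBTB7B, a zinc finger repressor of lymphocyte lineages (21.8, 21.7, 17.5 and 24.2). CD74 alone of these was lower in both PHF19 libraries than in both empty vector libraries.

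**Figure D3:**
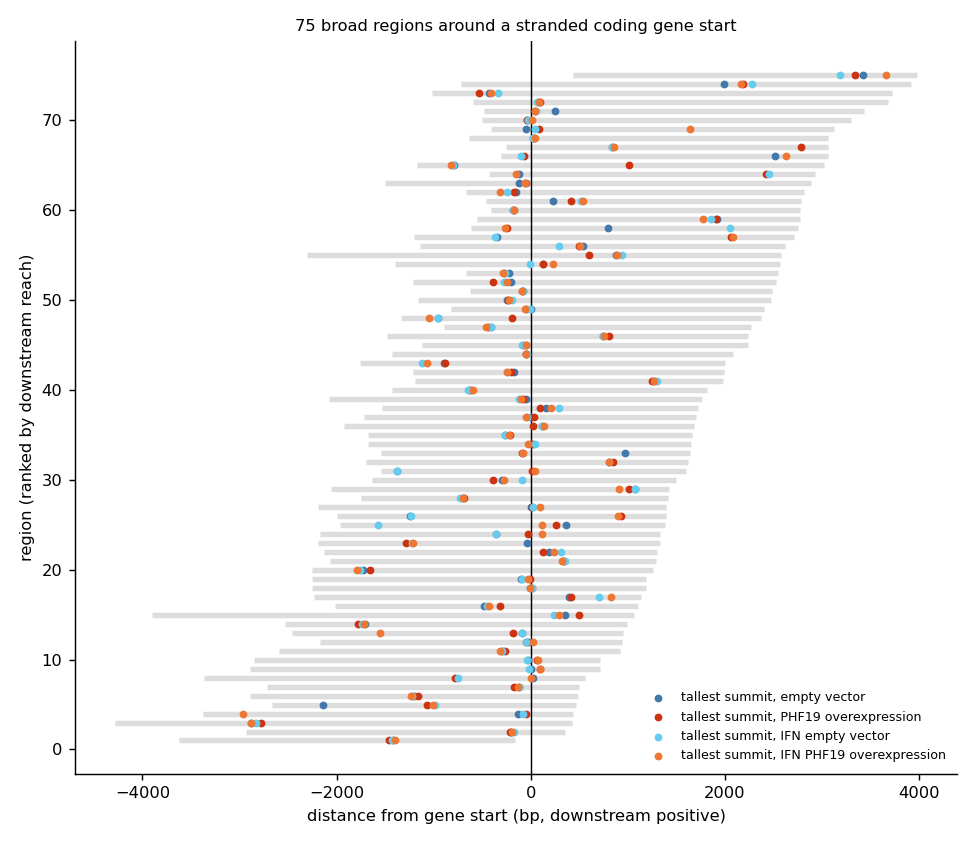
Extent of 75 broad regions around the start of a coding gene of known strand (grey bars, bp, downstream positive) with the tallest summit of each library as a point. 73 bars contain the start, the median reach is 1630 bp upstream and 1727 bp downstream, and most points cluster near 0.

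Broad regions lay mainly at genes. A coding gene start (or, where the strand was not known, either gene end) was within 1000 bp of 91 of the 118, which is 77.1% (Wilson 95% interval 68.8 to 83.8%), against 70.4% of the 2 to 3 kb class and 31.2% of all regions. Of the broad regions 17 (14.4%) took in 2 or more coding genes, close to the 16.3% of the 2 to 3 kb class and above the 4.39% over all. In the plot of extents around starts, 73 of the 75 regions contained the start. They reached about as far upstream (median 1630 bp) as downstream (1727 bp), with the longer arm downstream in 38 of 73 (52.1%), against 61.5% of the 2 to 3 kb class and 63.7% of all regions. In 28 of the 75 a gene, coding or not, also started on the other strand, and among the 45 without one whose start was inside, 26 were longer downstream. The tallest summit of the empty vector library was within 500 bp of the start in 49 of 75. Exceptions were SQSTM1, an autophagy receptor, whose tallest summits lay between -1781 and -1711 bp from the start (upstream) in the 4 libraries, and EEF2, with -2138 bp in the empty vector library and -1065 to -983 bp in the others. Chromosomes 17 and 5 held the most broad regions for their number of open regions, with 13 and 12, or 7.08 and 6.05 per 1000; chromosome 1 had 16, or 4.63 per 1000. In 4 places 2 broad regions lay within 100 kb of each other, at SPEN, KDM6B, ANXA2R-OT1 and ST3GAL1.

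Among gene lists, broad members were few in number. Of the 11652 coding genes with a peak in every library, 110 (0.944%) had a broad one. Plasma cell identity genes had 2 of 27 (7.41%), SDC1 and CXCR4, and haematopoietic transcription factors 3 of 30 (10.0%), GFI1, IRF2 and BHLHE40. AP-1 and immediate early genes had 2 of 28 (7.14%), NR4A2 and ZFP36L2. Housekeeping genes had 2 of 32 (6.25%), YWHAZ and EEF2, and the replication-dependent histone genes had 4 of 38 (10.5%), which lie in 2 regions. VIM was the only one among 8 open stromal and epithelial markers (12.5%). No broad region fell on the 33 open interferon-stimulated genes, 38 ribosomal protein genes, 25 genes of the unfolded protein response and secretion, 31 genes of the Polycomb complexes, 36 cell cycle genes or 9 open developmental Polycomb targets. B cell genes (9 open of 20), T and NK cell markers (9 of 24), myeloid markers (3 of 18) and erythroid markers (1 of 9) had none either. At a share of 0.944% over all open coding genes, lists of this size may hold none without differing from the rest. Any list of this size with a broad member is already above that share, so the shares printed rest on very few genes. The broad region at HOXB7/HOXB8, which are in none of these lists, measured 3179, 3171, 3144 and 3075 bp. By comparison, 27 of 28 plasma cell genes were open, beside 11652 of all 19126 coding genes. This was not particular to plasma cell genes, as 32 of 32 housekeeping genes and 36 of 37 cell cycle genes were open too. At PHF19, the gene carried by the plasmid, a narrow region within the gene at chr9:120857950-120858284 had a peak in the PHF19 library (144 fragments) and the IFN PHF19 library (120 fragments) and none in the others; whether it comes from the plasmid was not tested.

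The first comparison asks how PHF19 overexpression and empty vector differed at broad regions. Ratios are log2 of the heights and are given centred on the median over every region that both libraries called, which was -0.11 for the unprefixed pair and 0.17 for the IFN pair. In the unprefixed pair the 118 regions had a median of -0.17 (95% interval from the ranks of the regions -0.24 to -0.09), and 89 were below 0. A height at least 1.5-fold lower was found at 13 regions (11.02%), beside 8.89% of all regions, and a height at least 1.5-fold higher at 0, beside 12.4% of all. In the highest 10% of all regions by mean height the median was -0.12, 71.7% were below 0, 0.689% were 1.5-fold higher and 3.56% were 1.5-fold lower. Centred within 10 classes of height, the median of the broad regions was -0.06, and 67 of 118 were below 0. Regions had to be long in the empty vector library to be chosen, and among the 42 chosen by their PHF19 lengths the median was -0.09.

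In the IFN pair the ratios of broad regions were spread around 0. Their median was -0.03 (-0.07 to 0.02), and 66 were below 0, as were 53.6% of all regions. A 1.5-fold higher height was found at 4 (3.39%), beside 7.91% of all, and a 1.5-fold lower one at 4 (3.39%), beside 11.3%. The counting interval lay above 0 at 21 regions and below 0 at 26, against 8 and 37 in the unprefixed pair. Without the centring, the median of this pair was 0.14 and 85 regions were above 0, so a direction for the whole group depends on the scaling.

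**Figure D4:**
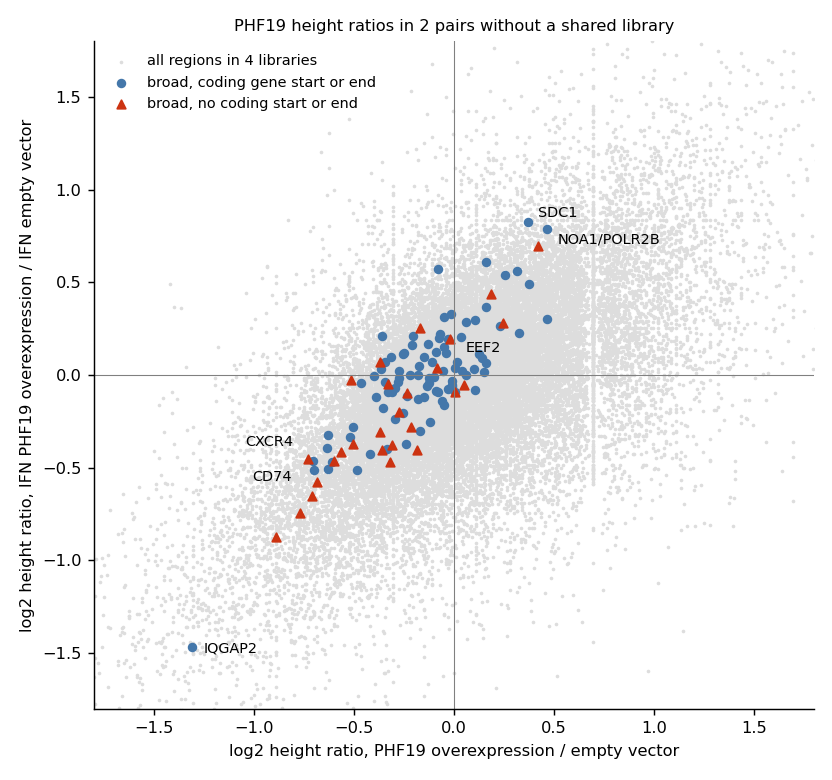
Centred log2 height ratio for PHF19 overexpression in the unprefixed pair (horizontal) and the IFN pair (vertical), with all regions in 4 libraries in grey, broad regions with a coding start or end within 1000 bp as blue circles and other broad regions as red triangles; a few regions beyond 1.8 are outside the axes. IQGAP2 stands apart at -1.31 and -1.47, and 62 broad regions are below 0 on both axes.

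The pairs share no library, so single regions can be read side by side. Over the 118 regions the ratios of the pairs had a Pearson correlation of 0.84 and a Spearman correlation of 0.73, compared with 0.76 and 0.65 in the 2 to 3 kb class and 0.63 and 0.57 over all regions. Below 0 in both pairs were 62 regions (52.5%), against 50.9% of the 2 to 3 kb class and 37.0% of all regions. Above 0 in both were 25 (21.2%), against 21.4% and 32.7%. Neighbouring regions on a chromosome may shift together, so for the regions that differed most the ratio was also taken against the median of the other regions within 2.5 Mb, called the local ratio.

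IQGAP2, a scaffold protein of the actin cytoskeleton, differed most. Its region at chr5:76401611-76404948 reached 39.0, 14.6, 29.5 and 12.03 fragments per M, so both PHF19 libraries were far below both empty vector libraries. The ratios were -1.31 (-1.51 to -1.11) and -1.47 (-1.69 to -1.25), but the local ratios were -0.26 and -0.41: regions around it were lower too. Its length hardly differed, at 3010, 2941, 3338 and 2801 bp. CD74 gave -0.70 (-0.88 to -0.53) and -0.51 (-0.68 to -0.35), with local ratios of -0.35 and -0.11, and it was called as 1 peak in the empty vector libraries and 2 in the PHF19 libraries.

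The others that were lowest in both pairs lay away from coding gene starts. The region at chr4:184280695-184284037 reached 8.33, 4.17, 7.47 and 4.58, which gives -0.89 (-1.28 to -0.51) and -0.87 (-1.25 to -0.52), and local ratios of -0.65 and -0.75. One 34953 bp from HES1, a repressor driven by Notch, at chr3:194100579-194103758, reached 10.7, 5.82, 9.62 and 6.47, with ratios of -0.77 and -0.74 and local ratios of -0.67 and -0.64. One in the gene-poor stretch 442886 bp from PTPRC reached 3.87, 2.19, 3.84 and 2.75, on as few as 40 fragments, with -0.71 and -0.65. One 7684 bp from CALML6 reached 10.9, 6.31, 8.57 and 6.47, with -0.68 and -0.58 and local ratios of -0.56 and -0.55. In these 4 regions the heights of the PHF19 libraries were all below those of the empty vector libraries, and the difference was also seen against the surrounding regions. The tallest summits of the 4 libraries spanned 2196 bp in the chr4 region, 1396 bp far from PTPRC and 1469 bp near CALML6. Their ratios thus compare the tallest points of a region and not the same point in each library. Near HES1 the span was 35 bp.

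CXCR4, the chemokine receptor that keeps plasma cells in bone marrow, reached 9.76, 5.93, 7.28 and 5.92 fragments per M. The ratios were -0.61 (-0.95 to -0.28) and -0.47 (-0.80 to -0.15), and the local ones -0.48 and -0.34. Past 1.5-fold lower in the unprefixed pair only were also DUSP6 (-0.63 and -0.51 in the pairs), a phosphatase that switches off ERK, VIM (-0.63 and -0.39), the intermediate filament vimentin, KLF12 (-0.63 and -0.32) and MLLT6 (-0.70 and -0.46), both regulators of transcription, and regions within SLC7A5 (-0.73 and -0.45) and ST3GAL1 (-0.60 and -0.46). Each was below 0 in both pairs, and the difference between the pairs was not tested. The local ratios were -0.39 and -0.14 for DUSP6, -0.51 and -0.26 for VIM, -0.57 and -0.23 for KLF12, -0.61 and -0.44 for MLLT6, -0.68 and -0.41 for SLC7A5 and -0.52 and -0.37 for ST3GAL1, so 4 of these 6 were no longer past 1.5-fold in the unprefixed pair.

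Regions that were higher in both PHF19 libraries were fewer and mostly shared the shift of their surroundings. NOA1/POLR2B, the start shared by a mitochondrial GTPase and a subunit of RNA polymerase II, reached 6.87, 8.78, 5.22 and 10.1, giving 0.46 (0.15 to 0.77) and 0.79 (0.51 to 1.06) but local ratios of -0.07 and 0.31. SDC1 gave 0.37 (0.31 to 0.42) and 0.82 (0.77 to 0.87), and locally -0.02 and 0.61. TRIM7-AS2/LINC01962 gave 0.42 and 0.70, and locally -0.02 and 0.21. Only the IFN pair thus left SDC1 well above its neighbours, and there the IFN empty vector library was the low one. MINDY1/PRUNE1 gave 0.37 and 0.49 (locally 0.08 and 0.21), RAB24/PRELID1 0.31 and 0.56 (-0.17 and 0.06) and ARHGEF2 0.46 and 0.30 (0.26 and 0.02). SQSTM1 gave 0.25 and 0.54 (-0.17 and 0.06), and WNK1, a kinase of salt transport that passed 1.5-fold in the IFN pair, 0.16 and 0.61 (-0.29 and 0.24).

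The 27 broad regions with no coding gene start or end within 1000 bp, several of which lie inside gene bodies, had lower PHF19 ratios than the 91 with one, in both pairs. Their medians were -0.32 and -0.28, against -0.12 and 0.00 for the 91, and 22 and 20 of 27 were below 0, against 67 and 46 of 91. With the local median removed the values were -0.38 and -0.30 against -0.12 and 0.04, and within height classes -0.21 and -0.19 against -0.01 and 0.05. The 2 to 3 kb class showed the same contrast, with -0.29 and -0.30 for regions without a start or end and -0.10 and 0.00 for those with one, so it is not particular to regions of 3 kb or more. In the highest 10% of regions it was smaller (-0.16 and -0.11 against -0.12 and 0.00), and over all regions the unprefixed pair had the opposite order (0.04 against -0.06). Besides those named above, the 27 included regions within GREB1 (-0.36 and -0.41), COA1 (-0.32 and -0.47) and RASA3 (-0.28 and -0.20), at the far end of CBFA2T3 (-0.50 and -0.37), a corepressor, and 98392 bp from BASP1 (-0.56 and -0.41). Exceptions above 0 in both pairs were TRIM7-AS2/LINC01962, the region near MPZL1 (0.24 and 0.28) and one within DPYSL2 (0.18 and 0.44).

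By what the genes do, a grouping made after the gene names were seen, regulators of transcription and chromatin were the largest named set, with 26 of the 91 regions at coding genes. Their share among other open genes was not counted, so their number is no trait of broad regions. In the unprefixed pair 25 of the 26 were below 0 with a median of -0.25, beside 67 of the 91 and 50.7% of all regions. In the IFN pair 18 were, with a median of -0.05, beside 46 of the 91 and 53.6% of all. Centred within height classes, 19 and 16 of the 26 were below 0, with medians of -0.16 and -0.02. BRD2 gave -0.35 and -0.18, BHLHE40, a circadian repressor, -0.31 and 0.10, IRF2 -0.34 and 0.07, the SPEN corepressor -0.31 and -0.09, and ZBTB7B 0.10 and 0.30. Near -0.1 in both pairs were FOXO3 (-0.08 and -0.09), IRF5 (-0.15 and -0.12) and TFEB (-0.13 and -0.04). KDM6B, a demethylase that removes H3K27me3, has 2 broad regions, one at its start with -0.14 and -0.06 and one further inside, chr17:7841545-7845096, with -0.46 (-0.78 to -0.15) and -0.04. Surface proteins, channels and ligands numbered 13, with medians of -0.04 and -0.01 and a wide span from CD74 to SDC1. The 13 kinases, phosphatases and other signalling genes had medians of -0.07 and 0.09, and they ran from DUSP6 at the low end to WNK1 at the high end of the IFN pair. Cytoskeleton genes numbered 7 (-0.17 and 0.02), RNA-binding proteins 3 (-0.08 and 0.20) and histone regions 2 (0.06 and 0.17), and 27 had other roles.

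The other comparison sets the IFN-prefixed library against the unprefixed one with the same plasmid. The centre removed here was -0.09 for empty vector and 0.11 for PHF19. With empty vector, broad regions had a median of -0.26 (-0.30 to -0.23) and 113 of 118 were below 0. None was 1.5-fold higher, beside 4.73% of all regions, and 2 were 1.5-fold lower (1.69%), beside 0.971%, namely PPM1L (-0.59) and VPS9D1/ZNF276 (-0.68). This shift followed height: the highest 10% of all regions had a median of -0.24 with 95.1% below 0, and within height classes the broad regions had -0.08 with 88 below 0. In that highest 10%, 0.0% were 1.5-fold higher and 0.603% lower. The IFN empty vector library is also the deepest. SDC1 was among the lowest, at -0.56 (-0.60 to -0.51).

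With PHF19 the ratios of the prefix lay close to 0 at broad regions. The median was -0.03 (-0.07 to 0.00) and 69 were below 0, and 0 were 1.5-fold higher and 0 lower, beside 6.06% and 3.36% of all regions. SDC1 was at -0.02 (-0.08 to 0.03) here. The counting interval lay above 0 at 1 region and below 0 at 3, compared with 0 and 69 with empty vector. Lowest in both were KCNQ5, a potassium channel (-0.42 with empty vector and -0.36 with PHF19), IQGAP2 (-0.31 and -0.39), NEK7, a kinase of the inflammasome and spindle (-0.32 and -0.29), and ANKRD33B (-0.33 and -0.29). Above 0 in both, all within counting error, were the region far from PTPRC (0.07 and 0.21), SRGN, the granule proteoglycan serglycin (0.06 and 0.19), TNFRSF10A, a receptor of the death ligand TRAIL (0.05 and 0.03), and COA1 (0.08 and 0.02).

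**Figure D5:**
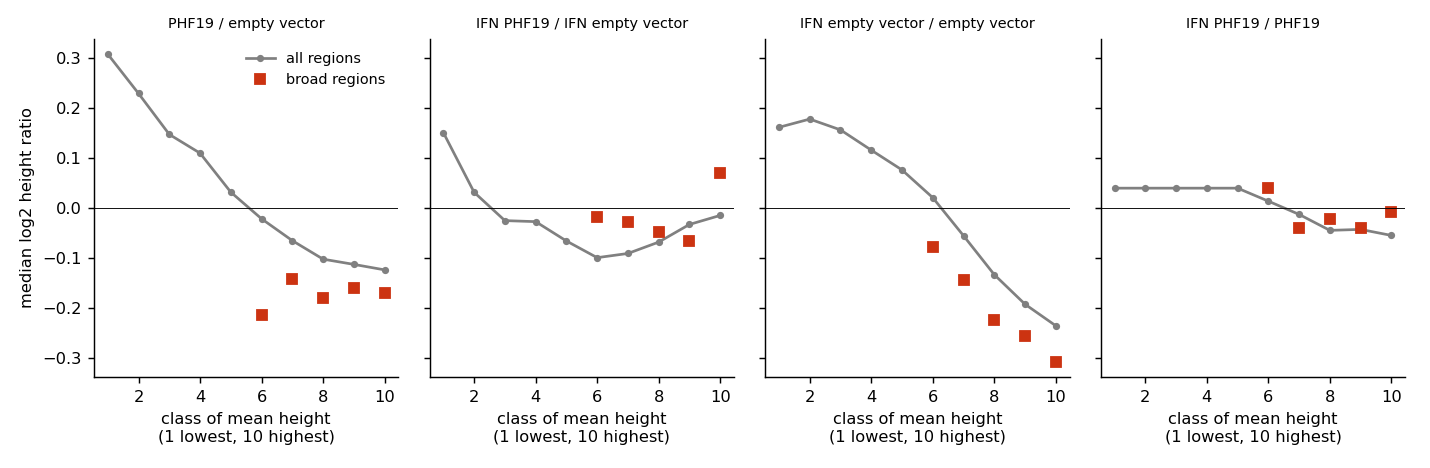
Median centred log2 height ratio in 10 classes of mean height, from lowest to highest, for all regions in 4 libraries (grey line) and for broad regions (red squares, classes with at least 5), 1 panel per comparison. In the highest class the grey line stands at -0.12, -0.01, -0.24 and -0.05, and the broad regions at -0.17, 0.07, -0.31 and -0.01.

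The plot by height class sets the broad regions beside others of the same height. In the highest class, which held 41 of them by mean height over the 4 libraries, their medians were -0.17, 0.07, -0.31 and -0.01 in the order of the comparisons above, PHF19 first and the prefix second. All regions of that class had -0.12, -0.01, -0.24 and -0.05. In the class below, with 40 broad regions, the medians were -0.16, -0.07, -0.26 and -0.04 against -0.11, -0.03, -0.19 and -0.04. Broad regions were therefore within 0.1 of other tall regions in these classes, and the sign of the gap was not the same in each comparison.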

How the data were processed

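The deposited files are 1 peak list per library, called by the authors with MACS2 2.1.2 on paired fragments at a q of 0.01 with duplicates kept and without a control, per the file headers. Other tools in the submitters' processing notes are Trimmomatic 0.38, bcl2fastq 2.17 and DiffBind, with build hg38. No source used here gives the aligner, the read filters or a Tn5 shift. The pileup deposited for each summit is the signal, an unscaled fragment coverage. The authors' −log10 q-value filtered peaks in 1 alternative, their −log10 p-value was not compared, and the deposited fold enrichment, a ratio to local background, was read within each list only.

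Peaks overlapping by 1 bp or more were merged on chromosomes 1 to 22 (Python 3.11.15, pandas 2.3.3, SciPy 1.17.1), and bedtools 2.31.1 gave the same 71853 regions. Height ratios of single regions carry exact 95% intervals for a ratio of counts, and intervals of medians come from the ranks of the regions. The lowest peaks had 10, 8, 16 and 8 fragments, and kept duplicates are not independent molecules. RefSeq gave stranded starts for 15101 coding genes on these chromosomes, and for 4025 others both ends were used; exons are not in the table. Steps were tested on simulated data. Named regions were the longest, the tallest, and those with the largest height or length ratio shared by both pairs, with list members beside them; WNK1, SQSTM1, BHLHE40 and other regions named with their role were picked after their values were seen. The members and the gene lists were chosen with earlier results of these data known.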

Additional observations from a re-analysis of the deposited data

Results flagged for a closer look

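At 2 broad regions the PHF19 ratios of the pairs had counting intervals on opposite sides of 0. ZFP36L2, an RNA-binding protein that speeds mRNA decay, reached 21.1, 16.95, 14.3 and 18.6 fragments per M, with log2 ratios of -0.21 in the unprefixed pair and 0.21 in the IFN pair. PPM1L, a phosphatase, reached 26.1, 18.8, 16.3 and 21.3, with -0.36 and 0.21. In both, the empty vector library was highest and the IFN empty vector library lowest, and the PHF19 libraries differed from each other by 0.02 and 0.06. With 1 library per group the difference between the pairs was not tested.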

How the results depend on the processing

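No paired analysis was possible because each group has 1 library and the replicate number is only a name. Of 154 alternative values, 115 stayed within the spread set for them and 39 moved. The number of broad regions was 430 at 2500 bp, 10 at 4000 bp, 42 with the minimum in both PHF19 libraries and 40 in all 4. At 4000 bp the median PHF19 ratio was -0.084 and 0.16 in the unprefixed and IFN pair, 20% were 1.5-fold higher in the IFN pair and 0.0% lower in either pair or with the prefix in empty vector, and the peak length ratio of the unprefixed pair was -0.53. Chosen in both PHF19 libraries, or in all 4, the median of the unprefixed pair was -0.087, the log2 peak length ratios of the pairs were -0.018 and -0.074, or -0.020 and -0.077, and 0.0% were lower with the prefix in empty vector. Without centring the medians were -0.28, 0.14, -0.34 and 0.084 in the order of the comparisons. Within height classes those of PHF19 in the unprefixed pair, the prefix with empty vector and the prefix with PHF19 were -0.059, -0.083 and 0.018, and 5.08% were lower in the first of these and 0.0% in the next. With the local median removed, 5.93% were lower in the unprefixed PHF19 pair. With the mean over the summits the IFN pair had -0.093 and the prefix with empty vector -0.21, and 3.39% were lower for the prefix with PHF19. At a fold of 1.2, 5.93%, 14.4% and 4.24% were higher for PHF19 unprefixed, PHF19 in the IFN pair and the prefix with PHF19, and 37.3%, 23.7%, 48.3% and 5.93% were lower in the 4 comparisons in order. The choice on the empty vector library alone, added after the data were seen, gave 128 regions. Low regions such as EEF2 rest on few fragments, and no step separates depth from plasmid.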
